A study of Mus musculus with 6 samples.

Results

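The 10 genes described encode receptors of the fibroblast growth factor (FGF) and hepatocyte growth factor (HGF) pathways and regulators of HGF activation. They were taken by symbol from a table of 21700 genes. They are the FGF receptors Fgfr1, Fgfr2, Fgfr3 and Fgfr4, the receptor-like gene Fgfrl1, the co-receptor gene Klb, the HGF receptor gene Met, its relative Mst1r, Hgfac and Spint1. Hgfac encodes the protease that activates HGF, and Spint1 an inhibitor of that protease. For short, all are called receptor and activator genes. All 10 had a row in the table. The samples were 6 RNA-seq libraries of biliary epithelial cells, the cells that line the bile ducts, sorted from liver; the mice were female, wild type and C57BL/6. They came in 2 groups, 3 libraries from pregnant mice at 8 days post coitum and 3 from non-pregnant mice. The comparison asks how the transcripts of these cells in early pregnancy differ from those outside pregnancy. The labels do not state whether each library stands for its own animal. The p-values therefore describe the spread among these 6 libraries, part or all of which may be technical.

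FGF receptors are tyrosine kinases of the cell surface that are activated by FGF ligands together with heparan sulfate, and they signal through docking proteins to the RAS-ERK cascade. The endocrine ligands FGF15 and FGF21 need the co-receptor beta-Klotho, the product of Klb, as well, and in hepatocytes FGFR4 with beta-Klotho receives the FGF15 signal from the gut that restrains bile acid synthesis. HGF is secreted as an inactive precursor that serine proteases such as the HGF activator cleave. The cleaved form binds MET, a receptor known for growth, movement and tube formation of epithelial cells, in the bile duct among other tissues.

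Levels are given in FPKM, which scales fragments by exon length and by library total, so that genes of different length can be set side by side. The libraries held between 25047887 and 30662595 recovered fragments in the pregnant group and between 28916147 and 35083751 in the non-pregnant group. Non-pregnant library 3 stood apart from the other libraries on the first principal component of the tested genes (50.3% of the variance) and non-pregnant library 2 on the second (28.3%). The keratin gene Krt19 stood at 369 ± 22.6 FPKM in pregnant and 281 ± 58.6 FPKM in non-pregnant libraries, and Epcam, an epithelial adhesion molecule, at 193 ± 2.54 and 183 ± 1.16 FPKM (SD, n = 3 each). All 13 biliary markers on the list were above 0 in every library.

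The 10 genes differed far more from each other in level than any of them did between the groups. Fgfr3 was the highest, with a mean of 319.9 FPKM over the 6 libraries, which placed it at rank 52 of the 11412 genes tested. Spint1 came next at 88.3 FPKM, followed by Fgfr4 at 55.7, Fgfr1 at 51.8 and Fgfr2 at 48.0 FPKM, whose ranges over the libraries overlapped, so that their order was not set beyond the spread. Met averaged 32.0 FPKM, Fgfrl1 20.9 FPKM and Hgfac 10.8 FPKM. At the low end Mst1r averaged 1.91 FPKM and Klb 0.255 FPKM. Apart from Fgfr4, Fgfr1 and Fgfr2, each gene lay above the next one in the order in all 6 libraries.

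**Figure D1:**
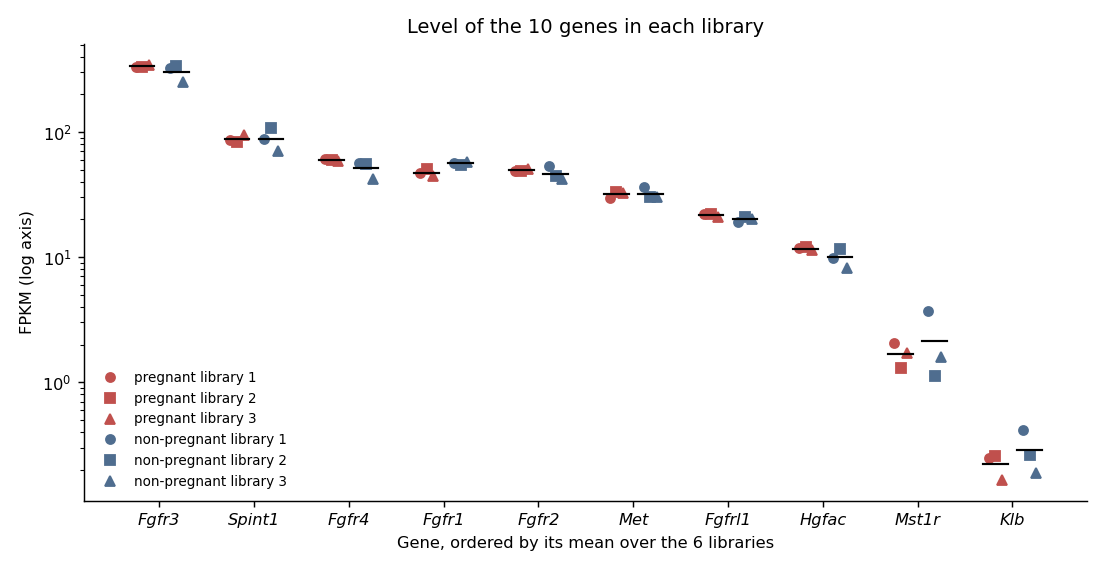
FPKM of the 10 genes on a log axis, ordered by mean level, with the pregnant libraries (red) left of the non-pregnant ones (blue), 1 point per library and a black line at each group mean. Fgfr3 lies above all others at 252 to 345 FPKM and Klb below all others at 0.165 to 0.414 FPKM, and the 2 groups lie close to each other for every gene.

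FGFR4 and beta-Klotho act as a pair in hepatocytes, and in these cells their genes differed widely in level. The FPKM of Fgfr4 was between 233 and 353 times that of Klb in the pregnant libraries and between 137 and 225 times in the non-pregnant ones. The 250 bases upstream of a RefSeq start site (GRCm38.p6, the build of mm10) are shown for this pair and for Fgfr3, because Fgfr3 had the highest and Klb the lowest level of the 10 genes. RefSeq gives Fgfr3 a second start site, whose window is not shown. All 3 lie on the plus strand, Fgfr3 at chr5:33721474-33721723, Fgfr4 at chr13:55152568-55152817 and Klb at chr5:65348161-65348410. Capitals mark the GC box, GGGCGG or CCGCCC on the other strand.
Fgfr3: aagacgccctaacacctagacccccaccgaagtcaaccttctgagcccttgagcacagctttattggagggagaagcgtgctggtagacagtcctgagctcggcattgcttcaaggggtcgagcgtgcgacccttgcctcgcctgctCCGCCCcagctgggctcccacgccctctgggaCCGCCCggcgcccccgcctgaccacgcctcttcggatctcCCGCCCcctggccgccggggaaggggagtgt
Fgfr4: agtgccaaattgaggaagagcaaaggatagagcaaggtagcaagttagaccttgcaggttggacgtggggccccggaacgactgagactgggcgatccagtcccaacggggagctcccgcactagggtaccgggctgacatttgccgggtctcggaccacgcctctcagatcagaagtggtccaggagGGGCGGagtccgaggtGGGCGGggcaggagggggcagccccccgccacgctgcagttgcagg
Klb: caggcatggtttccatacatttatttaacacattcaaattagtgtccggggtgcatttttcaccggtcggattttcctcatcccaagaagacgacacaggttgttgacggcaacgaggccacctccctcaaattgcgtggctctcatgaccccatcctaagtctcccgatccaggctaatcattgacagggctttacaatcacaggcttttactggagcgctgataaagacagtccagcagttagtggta
The window of Fgfr3 shown held 3 GC boxes and 19 CpG dinucleotides, that of Fgfr4 2 GC boxes and 15 CpG, and that of Klb 0 GC boxes and 9 CpG. The second window of Fgfr3, chr5:33722056-33722305, held 2 GC boxes and 24 CpG. Of all 32851 windows of this length in the RefSeq table, 32.7% held a GC box on either strand, and the median was 6 CpG. GC boxes and CpG numbered 3 and 26 for Spint1, 3 and 24 for Met and 4 and 30 for Fgfrl1. They numbered 0 and 2 for Fgfr2 and 0 and 1 for Hgfac. For Mst1r they were 2 and 7 at the first start site and 0 and 6 at the second. These numbers did not follow the order of level, as Mst1r beside Hgfac shows. The RefSeq start site of Fgfr2 lay at an offset of -2856542 bases from its GENCODE start, and that of Fgfrl1 at 1847 bases. Which start sites these cells use was not tested. The half-site of the liver and bile duct factor HNF1, GTTAAT or ATTAAC on the other strand, was found in none of the 3 windows shown, and in 6.43% of all windows. Among the 9 genes with an entry, which are all but Fgfr1, the windows of Hgfac and Spint1 held 1 such half-site each. A match of letters is a description of the window and says nothing of a factor bound there.

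In pregnancy none of the receptor and activator genes changed past the threshold. Of the 10 genes 9 had a mean of at least 1 FPKM and were tested, and 0 of the 9 passed at an adjusted p of 0.05 (limma on log2(FPKM + 1), Benjamini-Hochberg over all 11412 genes), where 0.0876% of all genes tested did. Unadjusted p-values under 0.05 were found for 1 of the 9, Fgfr1, against 13.4% of all genes tested. That share is also the one to set beside the unadjusted counts of the gene lists given below. The median log2 change of the 9 was 0.09, beside -0.02 over all genes tested. For Fgfr4 and Fgfrl1, 2 of the 9, all pregnant libraries lay above all non-pregnant ones, against 9.9% of all genes tested; for Fgfr1, 1 of the 9, all lay below, against 12.2%.

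**Figure D2:**
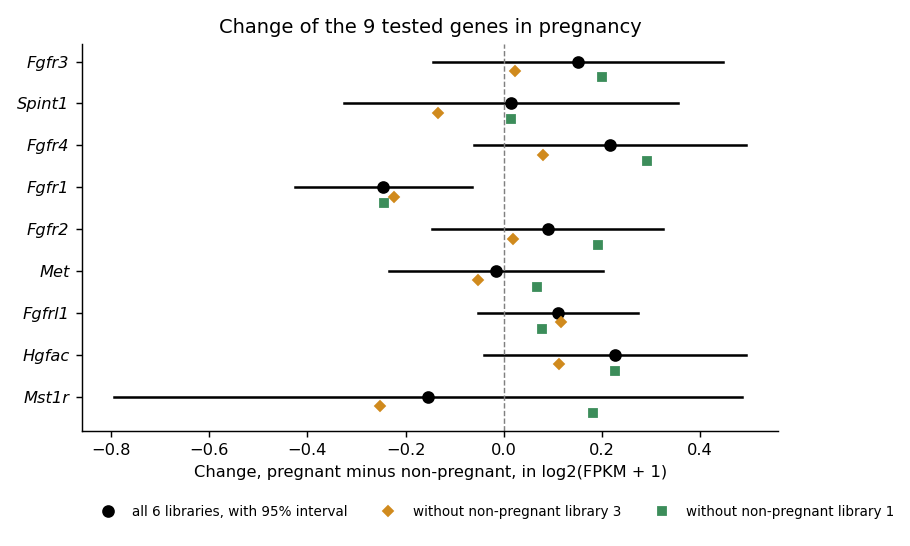
Change in log2(FPKM + 1), pregnant minus non-pregnant, of the 9 tested genes, with its 95% interval (black) and the value without non-pregnant library 3 (orange) or 1 (green). Only the interval of Fgfr1 lies wholly on one side of 0, and the changes of Fgfr3, Fgfr4 and Hgfac are smaller without non-pregnant library 3.

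Among the FGF receptors, Fgfr1 had the smallest p. Fgfr1 (ENSMUSG00000031565), a receptor of many FGF ligands that is best known from mesenchymal cells, lies on chromosome 8 from 25513654 to 25575718 (mm10). It stood at 46.8, 50.6 and 44.7 FPKM in pregnant libraries 1 to 3, against 56.4, 54.4 and 58.0 FPKM in non-pregnant libraries 1 to 3. Every pregnant library was below every non-pregnant one. The means were 47.4 ± 3.002 and 56.3 ± 1.76 FPKM (SD, n = 3 each), a ratio of 0.842. The log2 change was -0.25 with a 95% interval from -0.43 to -0.06, and it did not pass over all genes tested (limma adjusted p = 0.301). With limma's library weights it did pass, at a log2 change of -0.23 (limma adjusted p = 0.0429); those weights called 1301 genes in all.

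Fgfr3 (ENSMUSG00000054252; chromosome 5, 33721674 to 33737068), a receptor known for restraining bone growth and also present in many epithelia, stood at 328, 333 and 345 FPKM in the pregnant libraries. In the non-pregnant libraries it stood at 323, 338 and 252 FPKM. The groups overlapped, and the spread of the non-pregnant group came from library 3, which was the lowest of all 6. The log2 change was 0.15 with a 95% interval from -0.14 to 0.45 (limma adjusted p = 0.585), and without non-pregnant library 3 it was 0.02. Of the exon bases of Fgfr3, 13.9% are shared with a gene model on the other strand, G630022F23Rik, whose reads cannot be told apart from those of Fgfr3 because nothing states that counting used the strand.

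Fgfr4 (ENSMUSG00000005320; chromosome 13, 55152640 to 55168759) stood at 61.3, 59.8 and 58.2 FPKM in the pregnant libraries, against 56.9, 55.9 and 42.2 FPKM in the non-pregnant ones. All pregnant libraries were above all non-pregnant ones, and most of the difference of the means lay in non-pregnant library 3. The log2 change was 0.22 (95% interval from -0.06 to 0.50; limma adjusted p = 0.435), and it was 0.08 without that library. Because Fgfr4 is best known from hepatocytes, the hepatocyte markers are given beside it. All 15 of those with a row were above 0 in every library, and their summed level was between 2469 and 2801 FPKM in the pregnant and between 2512 and 3101 FPKM in the non-pregnant libraries, most of it Alb. That sum was highest in non-pregnant library 3, where Fgfr4 was lowest. The summed biliary markers were lowest in the same library, at 5190 FPKM. The part of either cell type in the Fgfr4 value was not tested.

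Fgfr2 (ENSMUSG00000030849; chromosome 7), whose epithelial isoform receives FGF7 and FGF10 from the mesenchyme, stood at 48.7, 48.4 and 51.0 FPKM in the pregnant and 53.6, 44.2 and 41.9 FPKM in the non-pregnant libraries. The groups overlapped, with the highest and the lowest value both in the non-pregnant group (log2 change 0.09, 95% interval from -0.15 to 0.33; limma adjusted p = 0.684). The change was 0.02 when non-pregnant library 3 was left out, and 0.19 when library 1 was. The values are per gene and do not separate the epithelial from the mesenchymal isoform. GENCODE gives the gene a span from 130162451 to 133123350, with 314 exon bases (3.04% of its exons) shared with Ctbp2, so a small part of its fragments is uncertain.

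Fgfrl1 (ENSMUSG00000008090; chromosome 5, 108692382 to 108706924) encodes a member of the family without a kinase domain, which binds FGF ligands and heparin. It stood at 22.2, 22.2 and 20.9 FPKM in the pregnant and 19.2, 20.8 and 20.3 FPKM in the non-pregnant libraries, and the lowest pregnant library exceeded the highest non-pregnant one by a narrow margin. The log2 change was 0.11 with a 95% interval from -0.05 to 0.27 (limma adjusted p = 0.486).

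Klb (ENSMUSG00000029195; chromosome 5, 65348314 to 65384007) was below the filter and was not tested. It stood at 0.248, 0.256 and 0.165 FPKM in the pregnant libraries, which is 30, 36 and 19 recovered fragments. In the non-pregnant libraries it stood at 0.414, 0.262 and 0.187 FPKM, which is 54, 36 and 30 fragments. The groups overlapped, and non-pregnant library 1 was the highest.

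Of the 4 kinase receptors, Fgfr3 held more than the other 3 combined in every library. Fgfr3 made up 68.2 ± 0.841% of their summed FPKM in pregnant and 66.2 ± 2.35% in non-pregnant libraries (SD, n = 3 each), with overlapping groups. The share of Fgfr1 was 9.63 ± 0.663% in pregnant and 12.4 ± 1.99% in non-pregnant libraries, with no overlap between the groups. Fgfr4 held 12.1 ± 0.484% and 11.2 ± 0.468% in the same order of groups. These did not overlap either, by a narrow margin (pregnant library 3 at 11.66%, non-pregnant library 1 at 11.62%). Fgfr2 held 10.03 ± 0.198% and 10.2 ± 1.06%, with overlapping groups. The ratio of Fgfr3 to Fgfr1 was 7.01, 6.59 and 7.72 in the pregnant libraries, against 5.72, 6.21 and 4.35 in the non-pregnant ones. These shares follow from the values above and were not tested.

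**Figure D3:**
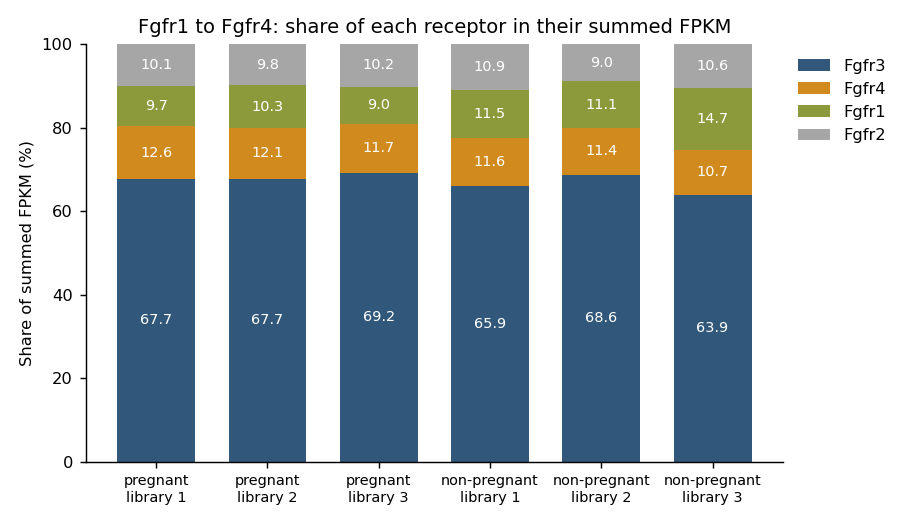
Share of Fgfr3, Fgfr4, Fgfr1 and Fgfr2 in their summed FPKM (percent) in each library, pregnant libraries on the left. Fgfr3 holds between 63.9% and 69.2% throughout, and the share of Fgfr1 is largest in non-pregnant library 3 at 14.7%.

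Met (ENSMUSG00000009376; chromosome 6, 17463800 to 17573980), the HGF receptor, stood at 29.8, 33.05 and 32.5 FPKM in the pregnant libraries, against 36.2, 30.005 and 30.4 FPKM in the non-pregnant ones. The groups overlapped, with non-pregnant library 1 the highest. The means were 31.8 ± 1.74 and 32.2 ± 3.46 FPKM (SD, n = 3 each). The log2 change was -0.02 with a 95% interval from -0.23 to 0.20, that is a ratio between 0.851 and 1.15 (limma adjusted p = 0.949). Without non-pregnant library 1 the sign turned, to 0.07.

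Mst1r (ENSMUSG00000032584; chromosome 9, 107906873 to 107920383) encodes RON, the receptor for macrophage-stimulating protein. It stood at 2.05, 1.29 and 1.70 FPKM in the pregnant libraries, against 3.72, 1.13 and 1.59 FPKM in the non-pregnant ones. Non-pregnant library 1 was the highest, with 534 recovered fragments against 171 and 280 in the other non-pregnant libraries. The groups overlapped (log2 change -0.15, 95% interval from -0.79 to 0.49; limma adjusted p = 0.8003), and without non-pregnant library 1 the change was 0.18. Of all genes tested 12.9% were highest in that library. The summed level of 6 mesothelial markers was also highest there, at 29.4 FPKM, against 21.7 and 23.9 FPKM in the other non-pregnant libraries and 24.4 to 26.8 FPKM in the pregnant ones; Msln, the marker of highest level, was at 11.5 FPKM there and Krt5 at 0 in all 6. The part of mesothelial cells in the Mst1r value was not tested.

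Hgfac (ENSMUSG00000029102; chromosome 5, 35041509 to 35048461), which encodes the protease that activates HGF, stood at 11.7, 11.99 and 11.3 FPKM in the pregnant libraries. In the non-pregnant libraries it stood at 9.85, 11.7 and 8.25 FPKM. The groups overlapped, since non-pregnant library 2 lay within the pregnant range. The log2 change was 0.23 (95% interval from -0.04 to 0.49; limma adjusted p = 0.417) and 0.11 without non-pregnant library 3. Hgfac is known as a gene of hepatocytes, whose summed markers, given beside Fgfr4, overlapped between the groups. Of the 14 hepatocyte markers tested, 12 lay below 0, with a median log2 change of -0.21, and 0 passed in limma. An unadjusted limma p under 0.05 was found for 4, against 13.4% of all genes tested. The pregnant libraries lay wholly below the non-pregnant ones for 4 of the 14 (Ttr, Hnf4a, G6pc and Hamp), against 12.2% of all genes tested. They lay wholly above for 1 (Serpina1c), against 9.9%. The sum is mostly Alb, which stood at 2074 to 2274 FPKM in the pregnant and 1973 to 2550 FPKM in the non-pregnant libraries, while Apoa1 stood at 3.59 to 4.495 FPKM and 3.68 to 8.03 FPKM. The part of hepatocyte RNA in the Hgfac and Fgfr4 values was not tested.

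Spint1 (ENSMUSG00000027315; chromosome 2, 119237362 to 119249527) encodes HAI-1, a membrane protein that inhibits the HGF activator and related proteases. It stood at 86.6, 83.1 and 94.8 FPKM in the pregnant libraries, within the range of the non-pregnant ones at 87.2, 107 and 70.8 FPKM. The means were 88.2 ± 6.04 and 88.4 ± 18.2 FPKM (SD, n = 3 each; log2 change 0.01, 95% interval from -0.33 to 0.35; limma adjusted p = 0.969). Leaving out non-pregnant library 3 gave -0.13, and leaving out library 2 gave 0.16. The FPKM of Spint1 was between 6.93 and 8.37 times that of Hgfac in the pregnant libraries and between 8.58 and 9.15 times in the non-pregnant ones.

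Several of these genes moved with 1 library. Non-pregnant library 3 held the lowest value of 5 of the 9 tested genes (Fgfr2, Fgfr3, Fgfr4, Hgfac and Spint1), against 28.5% of all genes tested, and the highest of 1, Fgfr1, against 35.8%. Without that library the median log2 change of the 9 was 0.02, and 0 passed. The biliary markers moved with the same library: 8 of the 12 tested were lowest there, and their summed level was 7598, 7165 and 7118 FPKM in the pregnant and 6037, 6548 and 5190 FPKM in the non-pregnant libraries, with no overlap. The median log2 change of the 12 was 0.29, and all were above 0 (0.19 without non-pregnant library 3, with 10 above 0). All pregnant libraries lay above all non-pregnant ones for 7 of the 12, against 9.9% of all genes tested. Of the 12, 0 passed in limma, and 5 had an unadjusted limma p under 0.05, against 13.4% of all genes tested. The part of biliary cell content in the values of the 9 genes was not tested.

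The ligands of these receptors were low or undetected in the same cells. Of 21 genes for FGF ligands, FGF-binding proteins and the co-receptor Klotho, 5 were tested and 0 passed (limma; 1 at an unadjusted p under 0.05). Their median log2 change was 0.00, beside -0.02 over all genes tested. Of the 5, 1 lay wholly below in pregnancy, against 12.2% of all genes tested. Fgf1, a ligand of all FGF receptors, stood at 1.85, 1.74 and 1.79 FPKM in the pregnant libraries, below 2.10, 2.16 and 2.82 FPKM in the non-pregnant ones (log2 change -0.26; limma adjusted p = 0.362). Fgf18, a ligand of FGFR3, averaged 2.43 ± 0.378 and 2.15 ± 0.453 FPKM in pregnant and non-pregnant libraries, and Fgf9, another ligand of FGFR3, 1.32 ± 0.182 and 1.42 ± 0.403 FPKM (SD, n = 3 each). Fgfbp1, which releases FGF from the matrix, averaged 4.15 ± 1.27 and 4.06 ± 1.596 FPKM. The other 16 were between 0 and 1.44 FPKM in every library, and 3 of them (Fgf3, Fgf5 and Fgf10) were listed at 0 in all 6. For 4 of these 16 untested genes every pregnant library lay above every non-pregnant one. These were Fgf17, at 0.822 to 1.44 FPKM in the pregnant and 0.529 to 0.723 FPKM in the non-pregnant libraries, and Fgf8, Fgf22 and Kl, which had at most 59 fragments in a library. Among all genes tested that share was 9.9%. It was not computed for genes below the filter, so no rise is read from the 4 genes. Of the endocrine ligands, Fgf15 had 26, 32 and 43 fragments in the pregnant and 32, 15 and 24 in the non-pregnant libraries, and Fgf21 had 3, 1 and 0 in the pregnant and 0, 1 and 5 in the non-pregnant libraries.

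On the HGF side, the proteases and inhibitors of the cell surface were abundant and the ligands were not. Of 13 genes for HGF, macrophage-stimulating protein, their proteases and inhibitors, 6 were tested and 0 passed (limma; 1 at an unadjusted p under 0.05), with a median log2 change of -0.03. Hpn, which encodes hepsin, a membrane protease that cleaves HGF, stood at 70.7 ± 5.51 FPKM in pregnant and 79.5 ± 4.37 FPKM in non-pregnant libraries (SD, n = 3 each; limma adjusted p = 0.423). St14, which encodes the related protease matriptase, stood at 43.1 ± 1.13 and 43.9 ± 2.99 FPKM, and Spint2, the second inhibitor of this type, at 70.7 ± 1.82 and 69.0 ± 2.78 FPKM. Prss8, which encodes the membrane protease prostasin, had the smallest p of this list, at 59.0 ± 3.33 and 48.0 ± 7.11 FPKM with no overlap between the groups (log2 change 0.30; limma adjusted p = 0.351). It was the 1 of the 6 tested that lay wholly above, against 9.9% of all genes tested. Tmprss2, another membrane protease, stood at 17.8 ± 1.72 and 21.7 ± 4.28 FPKM. Mst1, the gene of macrophage-stimulating protein, stood at 1.64 ± 0.364 and 1.74 ± 0.545 FPKM.

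Hgf itself, known as a product of stellate and endothelial cells in the liver, was below the filter and followed 1 library. It stood at 0.183, 0.248 and 0.0990 FPKM in the pregnant libraries, which is 35, 55 and 18 fragments. In the non-pregnant libraries it stood at 0.262, 1.298 and 0.166 FPKM, which is 54, 282 and 42 fragments. Non-pregnant library 2 was the highest of all, and the other 5 overlapped. The 12 endothelial markers were above 0 in every library, and their summed level was 20.3, 30.9 and 24.3 FPKM in the pregnant and 38.9, 266 and 18.9 FPKM in the non-pregnant libraries, also highest in non-pregnant library 2. Among them Stab2, a receptor of liver sinusoidal endothelium, was at 46.8 FPKM there, and Kdr, an endothelial growth factor receptor, at 25.8 FPKM. The 13 stellate cell and fibroblast markers summed to 38.2 to 43.6 FPKM in the pregnant and 41.2 to 45.5 FPKM in the non-pregnant libraries. In such bulk samples fewer cells of a type and less RNA per cell cannot be told apart, and the part of endothelial cells in the Hgf value was not tested.

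**Figure D4:**
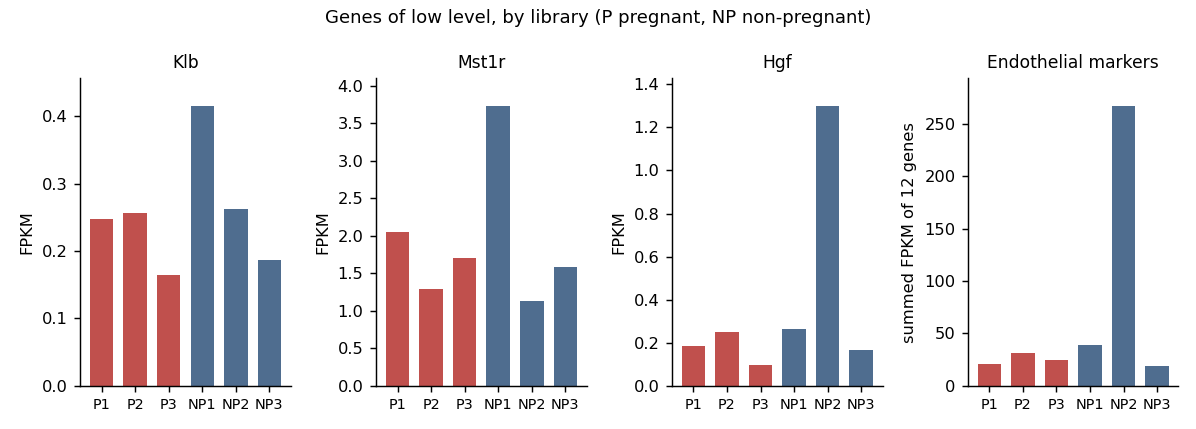
FPKM of Klb, Mst1r and Hgf and the summed FPKM of 12 endothelial markers by library, pregnant libraries (P, red) left of non-pregnant ones (NP, blue). Hgf and the endothelial markers are both highest in non-pregnant library 2 (1.298 and 266 FPKM), while Mst1r and Klb are highest in non-pregnant library 1 (3.72 and 0.414 FPKM).

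Heparan sulfate proteoglycans and receptor partners held no gene past the threshold, with 0 of 13 tested in either direction (limma; 3 at an unadjusted p under 0.05) and a median log2 change of 0.18. Of the 13, 3 lay wholly above in pregnancy, against 9.9% of all genes tested, and 1 wholly below, against 12.2%. Sdc3, which encodes syndecan-3, had the smallest p of this list. It stood at 11.4, 9.33 and 9.31 FPKM in the pregnant libraries, against 3.83, 7.55 and 4.98 FPKM in the non-pregnant ones. The groups did not overlap (log2 change 0.81 ± 0.195, SE; limma adjusted p = 0.281). Without non-pregnant library 2 it passed, at a log2 change of 1.03 (limma adjusted p = 0.0298). Kupffer cell markers are given beside it, since 4 of the 10 tested rose in pregnancy and 0 fell, against 0.0876% of all genes tested in either direction. That count was 0 with no filter on low values, with limma-voom, with robust empirical Bayes, and without pregnant library 1 or 2 or non-pregnant library 1 or 3. It was 7 with a replicate block or without pregnant library 3, 8 with library weights and 6 without non-pregnant library 2. Over the 6 libraries all 10 had a change above 0, with a median log2 change of 2.43. Without non-pregnant library 3, 8 did, and the median was 2.21. For 8 of the 10 every pregnant library lay above every non-pregnant one, against 9.9% of all genes tested. All 12 were above 0 in every library, with a sum of 181, 154 and 109.9 FPKM in the pregnant and 81.4, 90.4 and 57.4 FPKM in the non-pregnant libraries, and their part in the Sdc3 value was not tested. Flrt1, a membrane protein that binds FGF receptors, stood at 8.62 ± 0.787 and 11.4 ± 1.41 FPKM with no overlap (log2 change -0.37; limma adjusted p = 0.295). The glypican genes Gpc4, at 35.2 ± 1.29 and 31.3 ± 0.831 FPKM, and Gpc3, at 1.91 ± 0.766 and 1.15 ± 0.367 FPKM, did not pass either.

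The intracellular part of the pathway was also without a called gene. Of the 13 adaptors, which link the receptors to RAS and to phospholipase C, 0 passed (limma; 1 at an unadjusted p under 0.05), 12 lay below 0 and the median log2 change was -0.12. Non-pregnant library 3 was the highest for 8 of these 13, against 35.8% of all genes tested, and the median was -0.06 without that library. Crk, an adaptor of signalling complexes, stood at 27.3 ± 1.41 FPKM in pregnant and 32.5 ± 4.05 FPKM in non-pregnant libraries (SD, n = 3 each; log2 change -0.24; limma adjusted p = 0.363). Gab2, a docking protein, stood at 4.09 ± 0.338 and 4.98 ± 0.920 FPKM, the RAS activator Sos2 at 11.4 ± 0.554 and 12.9 ± 1.33 FPKM, and the phospholipase Plcg1 at 12.8 ± 0.854 and 14.4 ± 1.52 FPKM.

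Genes that ERK signalling induces, among them inhibitors that restrain it in turn, showed no common direction with all libraries weighted alike. Of 12 tested, 0 passed (limma; 3 at an unadjusted p under 0.05), 5 lay above 0 and 7 below, with a median log2 change of -0.02. Etv4 and Etv5, ETS transcription factors used as readouts of FGF signalling, had the smallest p. Etv4 stood at 8.21, 9.87 and 11.6 FPKM in the pregnant libraries, against 13.3, 12.5 and 13.8 FPKM in the non-pregnant ones, and Etv5 at 31.5, 31.4 and 28.7 FPKM against 39.6, 34.0 and 37.9 FPKM. Neither overlapped between the groups, with log2 changes of -0.39 and -0.27 (limma adjusted p of 0.298 and 0.301). Of the 12 tested, these 2 lay wholly below in pregnancy, against 12.2% of all genes tested, and 0 wholly above, against 9.9%. The phosphatase gene Dusp6, a feedback brake on ERK, lay the other way, at 92.0 ± 10.9 and 82.5 ± 2.55 FPKM (log2 change 0.15; limma adjusted p = 0.508). Spry2, a Sprouty inhibitor, stood at 34.4 ± 1.39 and 41.6 ± 6.60 FPKM, and Spry4 at 7.76 ± 0.833 and 7.74 ± 0.231 FPKM. The related inhibitors Spred1 and Spred3 had log2 changes of -0.27 (limma adjusted p = 0.369) and 0.21 (limma adjusted p = 0.375). With limma's library weights 3 of the 12 lay above 0, and 4 passed, all of them lower in pregnancy. These were Etv4, Etv5, Spry2 and Spred1 (limma adjusted p of 0.0250, 0.0188, 0.0337 and 0.0389). Those weights called 1301 of all 11412 genes tested.

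Partners and brakes of Met held 15 tested genes, of which 0 passed (limma; 3 at an unadjusted p under 0.05), with a median log2 change of 0.13. Cav1, which encodes the membrane scaffold caveolin-1, stood at 45.6, 43.1 and 45.3 FPKM in the pregnant libraries, against 31.8, 36.7 and 27.0 FPKM in the non-pregnant ones. The groups did not overlap (log2 change 0.49 ± 0.112, SE; limma adjusted p = 0.279), and without non-pregnant library 2 it passed at 0.59 (limma adjusted p = 0.0395). Plxnb1, a semaphorin receptor that associates with Met, stood at 129 ± 3.75 and 98.2 ± 24.3 FPKM, and the mucin gene Muc1 at 153 ± 17.1 and 106 ± 24.0 FPKM. Neither passed (limma adjusted p of 0.369 and 0.301). Muc1 is also on the list of biliary markers, of which all 12 tested lay above 0. The part of biliary cell content in the Muc1 value was not tested. Lrig1, a brake on receptor tyrosine kinases, stood at 10.6 ± 0.650 and 12.8 ± 1.79 FPKM (limma adjusted p = 0.380). For 4 of the 15 tested partners and brakes every pregnant library lay above every non-pregnant one, against 9.9% of all genes tested. Non-pregnant library 3 held the lowest value of 8 of the 15, against 28.5% of all genes tested. Endothelium expresses Cav1 as well. The summed endothelial markers, given beside Hgf, overlapped between the groups and were highest in non-pregnant library 2. All 10 of them that were tested lay below 0, with a median log2 change of -1.07, and 0 passed in limma. Without non-pregnant library 2 the median was -0.12, and 2 lay above 0. The part of endothelial cells in the Cav1 value was not tested.

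**Figure D5:**
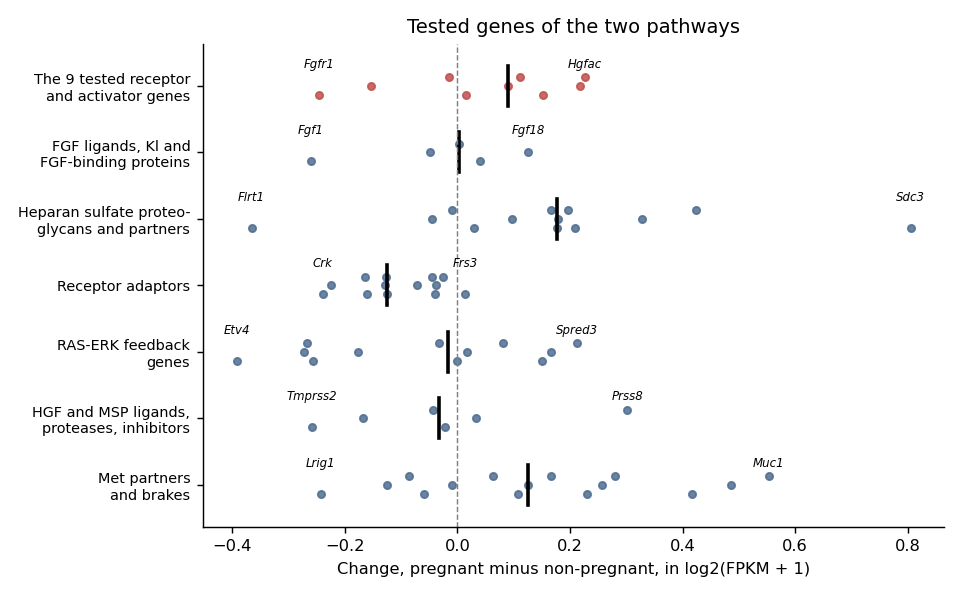
Change in log2(FPKM + 1), pregnant minus non-pregnant, of every tested gene of the 7 lists, 1 point per gene, with a black line at each list's median and the lowest and highest gene of each list named. The 9 tested receptor and activator genes (red) lie between -0.25 and 0.23, and no point in any list passed the threshold.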

How the data were processed

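The authors deposited FPKM values, one column per sample, for 21700 genes. Per the submitters' processing notes DESeq2 1.30.1, HTSeq 0.13.5, STAR 2.7.9a and cutadapt 3.4 were used with mm10; their roles and order are not listed. Per the labels' protocols the liver was digested, parenchymal cells were spun out, the cells were sorted by flow cytometry, and libraries were made with ribosomal RNA depletion from total RNA. No source used here names the sorting antibodies or the strand setting of the counting. FPKM divides by the total of a library, so a change in abundant genes moves all others slightly.

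Sample titles gave the groups and library numbers; the description of non-pregnant library 3, the library that stood apart, carries another number than its title, and the title was followed, also in the replicate block. FPKM times the GENCODE vM21 union exon length was a whole multiple of 1 step per library, within a tolerance of 0.01, for 98.5% of the values above 0, and these multiples are the recovered fragments. They carry no molecular identifiers. The test took the 11412 genes whose 6-library mean reached 1 FPKM and used log2(FPKM + 1), a pseudocount of 1 that understates changes of low genes. The contrast was pregnant minus non-pregnant in limma 3.58.1 under R 4.3.3, with a trend in the empirical Bayes step and two-sided p-values. P-values were adjusted by Benjamini-Hochberg with a threshold of 0.05. Tables and figures used Python 3.11.15, pandas 2.3.3 and matplotlib 3.10.9. On simulated data for 11252 genes of the same levels, the fit recovered 98 of 100 genes changed 2-fold and 100 of 100 changed 4-fold. Smaller changes were not simulated. The simulated libraries took a typical spread for each level and held no library that stood apart, as non-pregnant libraries 2 and 3 did. Recovery in the real libraries may therefore be lower, and the simulation does not give it.

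The 10 genes and the lists beside them were chosen with earlier results of these data known. The text names all 10 genes, the up to 4 genes of smallest p in each pathway list, a fixed set of ligands, proteases and feedback genes, and leading genes of the marker lists; genes named for being listed at 0 or for groups that did not overlap (FGF ligands, hepatocyte markers) were chosen after their values were seen. The 7 lymphocyte markers in the table, not quoted in the results, summed to 2.85 to 3.25 FPKM in the pregnant and 1.56 to 2.14 FPKM in the non-pregnant libraries. Promoter sequences are from RefSeq (GRCm38.p6), which held 9 of the 10 genes. Alternatives were other pseudocounts, filters and scalings, limma-voom on the recovered fragments, a replicate block, robust empirical Bayes, library weights, and leaving out each library.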

Additional observations from a re-analysis of the deposited data

How the results depend on the processing

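Across the alternatives run, Fgfr1 with library weights was the one call among the 9 tested receptor and activator genes (1 of 9, against 0 otherwise, including 0 to 0 when each library was left out). Fgfr1, Fgfr3, Fgfr4, Fgfrl1 and Hgfac kept their direction in all 16 alternatives. The count over all genes, 10, was 0 with no filter on low values (2258 at an unadjusted p under 0.05), 1 with limma-voom, 5 with robust empirical Bayes, 1301 with library weights, and 0 to 133 when each library was left out, the highest without non-pregnant library 2. The pathway lists held 10 called genes with library weights, 3 higher and 7 lower in pregnancy, and 0 to 2 when each library was left out. The cause of these shifts was not tested. With library weights the log2 change turned for Fgfr2 (-0.084), Spint1 (-0.025), Fgf18 (-0.083), Mst1 (0.060) and Spry4 (0.0053). Median-of-ratios scaling turned Met (0.0047) and Spry4 (0.018), quantile normalisation Spint1 (-0.012) and Spry4 (0.025), and limma-voom Spry4 (0.0019). Leaving out each library gave -0.062 to 0.069 for Met, -0.39 to 0.18 for Mst1r, -0.13 to 0.16 for Spint1, -0.19 to 0.047 for Fgf9, -0.15 to 0.29 for Fgfbp1, -0.00016 to 0.052 for Spint2, -0.15 to 0.11 for Mst1, -0.073 to 0.024 for St14 and -0.058 to 0.078 for Spry4. The replicate numbers did not pair the libraries (correlations of deviations 0.0679, 0.0186 and -0.138 for same-numbered libraries); with a replicate block 13 genes were called over all, 0 of the 9 and 0 in the pathway lists. With 3 libraries a group, the intervals of the 9 genes leave changes inside those intervals unresolved. Klb, below the filter, was tested with no filter on low values and was not called.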
